A study of Mus musculus with 2 samples.

Results

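CTCF occupancy in newborn mouse midbrain was examined at 10 genes used as general markers of neurons and of the neuronal cytoskeleton: Rbfox3, Celf4, Elavl3, Elavl4, Map2, Mapt, Tubb3, Stmn1, Stmn2 and Gap43. They were a listed set, 10 of 21755 protein-coding genes of chromosomes 1 to 19 and X in the GENCODE vM21 annotation. Each window was the gene body with 20 kb on either side, and every peak of the deposited optimal list whose summit lay in a window was taken. The 10 windows held 117 of the 68590 optimal peaks on those chromosomes. The list as a whole held 68603. The data were chromatin immunoprecipitation followed by sequencing with an antibody to CTCF, from the midbrain of newborn B6NCrl mice (postnatal day 0), with no genetic change or treatment named in the labels. There was 1 group of 2 replicates, and a control alignment served the peak calling. The labels numbered the samples as biological replicates 1 and 2. Both replicates nevertheless carried the same biosample and donor records and sex was not collected, so their spread may reflect technical variation alone. Whole midbrain holds neurons, glia and progenitors together, and the peak lists carry no expression values against which the tissue could be checked. The read depth was not given, so the absence of a listed peak at a start does not show the absence of CTCF.

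CTCF uses its zinc fingers to read an extended DNA motif that has a direction. With the cohesin ring it anchors chromatin loops, and cohesin tends to stop at CTCF where the motifs of a loop's anchors face each other. Most of these genes are switched on as progenitors become neurons and are expressed across many neuron types. Rbfox3 encodes NeuN, a splicing regulator, and Celf4, Elavl3 and Elavl4 encode RNA-binding proteins. Tubb3 encodes a neuronal beta-tubulin, Map2 and Mapt encode the microtubule-associated proteins MAP2 of dendrites and tau of axons, Stmn1 and Stmn2 encode stathmins that bind free tubulin, and Gap43 encodes a growth cone protein.

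The sequences below show the DNA under the strongest motif-holding peak of each window, and under the other motif-holding promoter peaks, other than 2 sites that appear within the promoters printed further on and Celf4, for which none is shown. They were read from GRCm38.p6, the mm10 build of the deposited lists. Capitals mark the 20 bases that best matched a CTCF weight matrix learned from the data, and each is printed 5′ to 3′ on the strand of the match. Sites touching an annotated untranslated region or other exon are shown with shorter flanks.
Stmn1 downstream peak, signal 638, chr4:134478157-134478216, strand -: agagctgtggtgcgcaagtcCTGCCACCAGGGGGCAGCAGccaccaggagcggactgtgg
Rbfox3 peak at the internal start, signal 492, chr11:118508050-118508109, strand +: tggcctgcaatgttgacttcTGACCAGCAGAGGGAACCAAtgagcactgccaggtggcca
Gap43 peak at the internal start, signal 459, chr16:42276615-42276674, strand +: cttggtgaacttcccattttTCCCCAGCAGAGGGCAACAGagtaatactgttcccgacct
Mapt intron peak, signal 415, chr11:104315876-104315935, strand +: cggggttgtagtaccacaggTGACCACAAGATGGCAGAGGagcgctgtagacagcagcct
Tubb3 upstream peak, signal 331, chr8:123406957-123407016, strand -: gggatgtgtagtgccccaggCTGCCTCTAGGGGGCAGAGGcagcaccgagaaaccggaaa
Elavl3 upstream peak, signal 294, chr9:22054959-22055018, strand -: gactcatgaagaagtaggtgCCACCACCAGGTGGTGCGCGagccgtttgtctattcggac
Stmn2 intron peak, signal 229, chr3:8513845-8513904, strand +: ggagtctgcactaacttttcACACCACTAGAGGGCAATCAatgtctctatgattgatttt
Map2 peak, signal 107, chr1:66407760-66407789, strand -: gcgctGTGACACTGGGGGGCACACTagtcc
Rbfox3 peak at the first start, signal 277, chr11:118911452-118911481, strand +: caaaaAGGTCTGCAGGTGGCACCAAgcctt
Mapt peak before the first start, signal 102, chr11:104230622-104230681, strand +: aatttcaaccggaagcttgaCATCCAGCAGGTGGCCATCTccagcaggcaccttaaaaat
Rbfox3 second peak at the internal start, signal 58.0, chr11:118506703-118506762, strand -: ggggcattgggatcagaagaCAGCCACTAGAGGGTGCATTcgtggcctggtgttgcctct

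The match of the Stmn1 downstream peak scored 26.6, above 99.5% of the 44510 optimal peaks with a match, whose median was 17.6. The match of Map2 scored 13.0, above only 6.47% of them, and the Rbfox3 match at the first start scored 14.2, above 16.1%. Over the 67 matches of the windows the median was 18.5.

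At 3 genes an optimal summit lay within the 250 bases before the first annotated start, upstream of the gene. These stretches are printed on the strand of the gene, so that the gene begins just past the right end, with the best match within 50 bp of the summit in capitals.
Mapt upstream sequence, chr11:104231140-104231389, strand +: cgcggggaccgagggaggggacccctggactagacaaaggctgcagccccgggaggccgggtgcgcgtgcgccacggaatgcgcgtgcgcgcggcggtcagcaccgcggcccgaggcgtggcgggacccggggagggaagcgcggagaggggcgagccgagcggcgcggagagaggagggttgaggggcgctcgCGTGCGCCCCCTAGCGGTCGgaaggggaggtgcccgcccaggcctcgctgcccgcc
Elavl4 upstream sequence, chr4:110351910-110352159, strand -: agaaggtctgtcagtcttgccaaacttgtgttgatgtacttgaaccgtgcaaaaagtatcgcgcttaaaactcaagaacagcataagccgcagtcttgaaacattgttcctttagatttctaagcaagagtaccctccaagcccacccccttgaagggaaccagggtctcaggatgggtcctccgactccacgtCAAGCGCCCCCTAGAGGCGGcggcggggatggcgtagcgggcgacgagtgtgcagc
Elavl3 upstream sequence, chr9:22052024-22052273, strand -: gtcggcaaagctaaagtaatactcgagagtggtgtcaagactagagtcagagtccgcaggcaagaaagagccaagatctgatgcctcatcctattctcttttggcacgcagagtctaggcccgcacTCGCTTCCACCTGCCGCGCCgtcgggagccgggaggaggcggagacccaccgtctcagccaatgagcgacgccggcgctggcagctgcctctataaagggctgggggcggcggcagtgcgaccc

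In Mapt the match passed the per-position threshold of 1e-05 used throughout, held 4 CpG dinucleotides and lay on the strand opposite to the gene. At least 4 CpG in the match occurred in 304 of the 44510 matched peaks, or 0.683%. The Elavl4 match passed the same threshold, held 2 CpG and also lay opposite to the gene. In Elavl3 the best match scored 8.9 and passed only the looser threshold of 1e-04. GC content was 78.4% for Mapt, 61.6% for Elavl3 and 54.0% for Elavl4. Rbfox3 had its motif opposite to the gene as well, so the motif was opposite at all 3 members with a matched peak within 150 bp of the first start. Over all coding genes it was opposite in 367 of 1070 such cases (34.3%). With 3 members no difference could be tested.

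Peaks were divided into 14 promoter peaks (within 1 kb of any annotated start of the gene), 81 other gene-body peaks, 10 in the upstream flank and 12 in the downstream flank. By annotation, 92 of the 117 summits lay in introns, 17 were intergenic, 5 were in untranslated regions, 2 in coding exons and 1 in a noncoding exon. Windows built on gene bodies favour introns by construction, and these classes were not counted over all peaks. Within 1 kb of an annotated start of any gene lay 19 of the 117 (16.2%), beside 21.1% of all optimal peaks. A promoter peak was found at 7 of the 10 genes, beside 9431 of 21755 coding genes (43.4%). Celf4, Tubb3 and Stmn2 had none. Only 5 of the 10, Rbfox3, Mapt, Stmn1, Elavl3 and Elavl4, had a peak within 1 kb of the first start, beside 35.3% of coding genes. Within 500 bp of any start the count was 4, beside 35.8%. The 10 genes held 77 distinct annotated starts, of which 26 had a peak within 1 kb. A peak near a start annotated for a gene does not show that the start is used in this tissue.

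**Figure D1:**
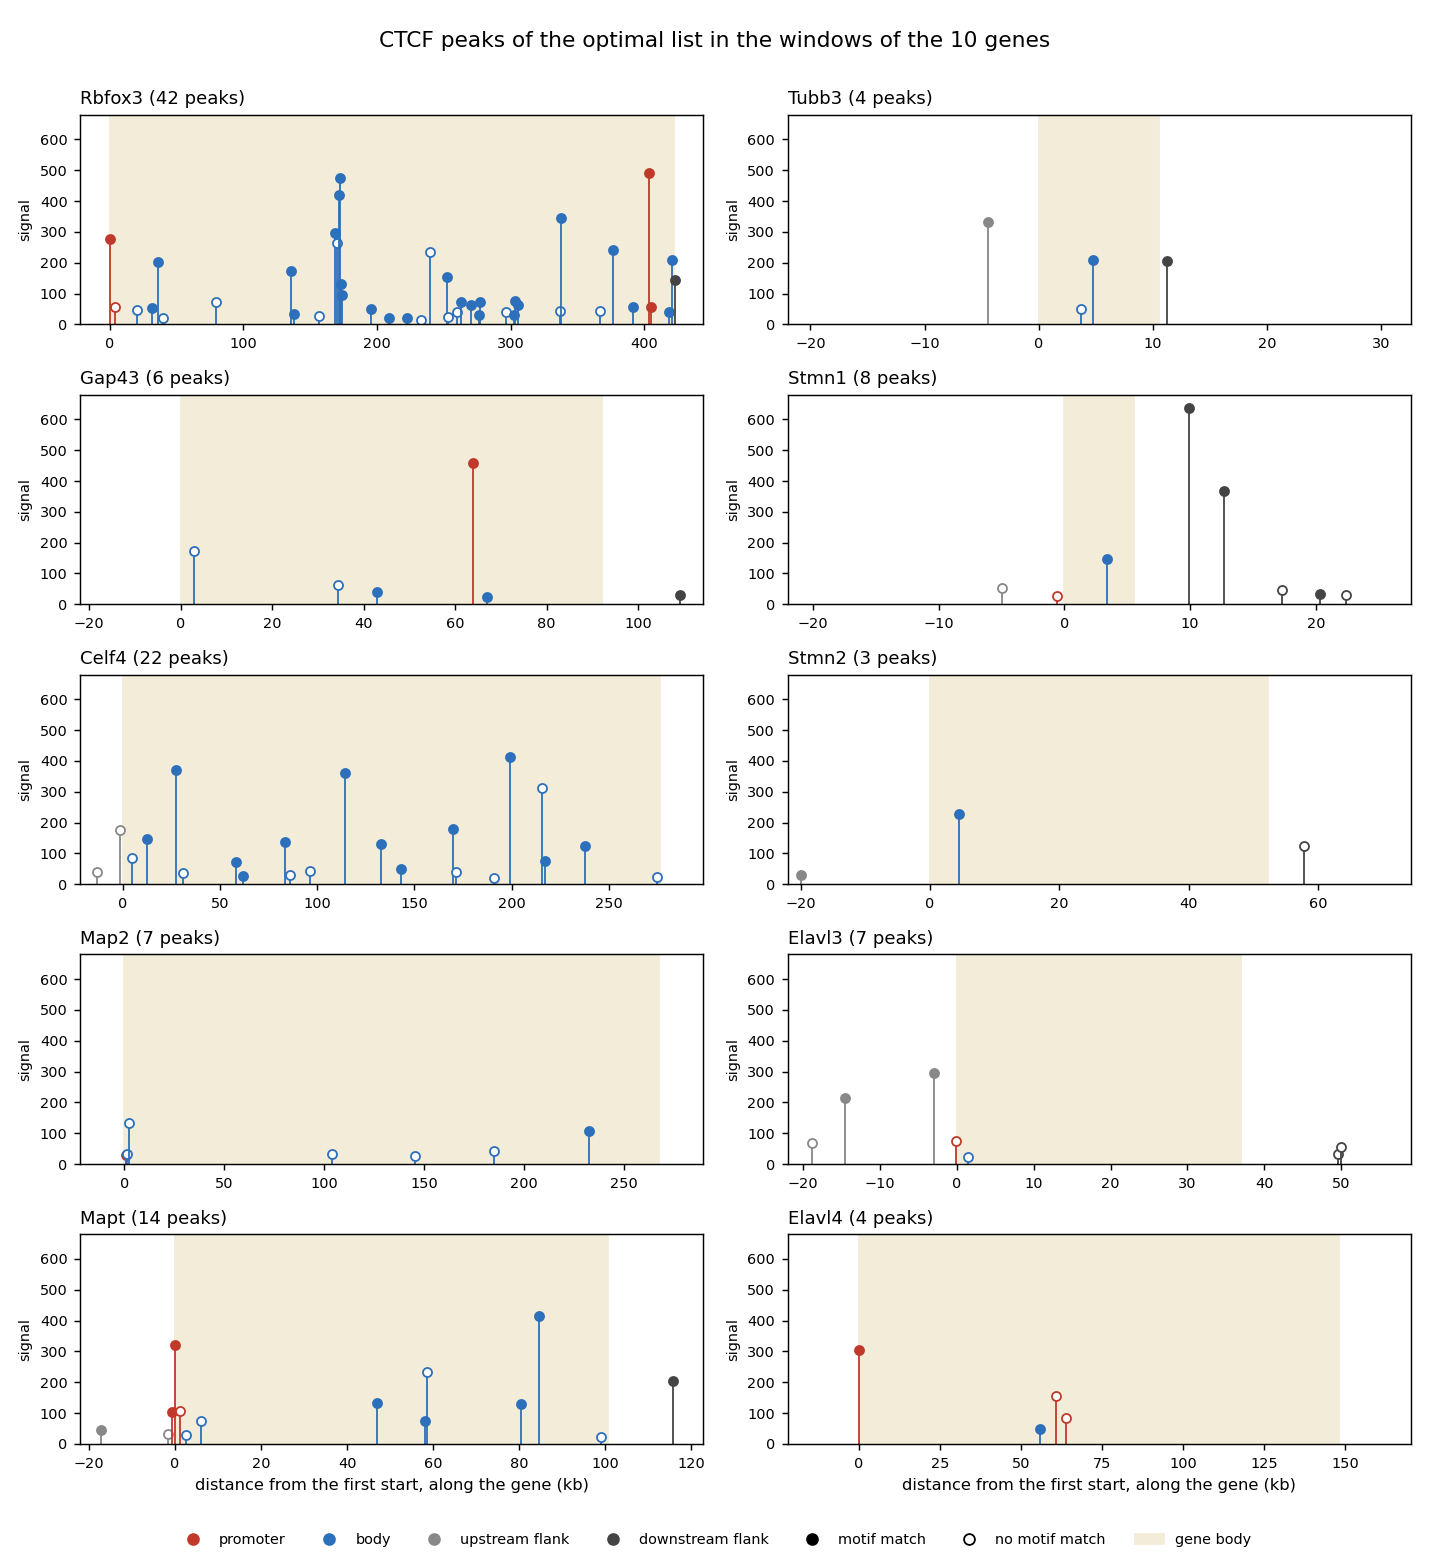
Signal of each of the 117 optimal peaks (vertical axis, deposited signal value) against the distance of its summit from the first start of the gene, read along the gene (horizontal axis, kb), with 1 panel per gene and the gene body shaded. Filled points hold a CTCF motif match and open points do not. Rbfox3 and Celf4 show peaks through the whole gene, while the strongest of the 117, at Stmn1, lies past the end of the gene.

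The signal is the value deposited for each peak. Its scale was not stated, and the optimal value was close to the sum of the values in both replicates' own lists (median ratio 1.00 over all peaks, 1.01 in the windows). Replicates were therefore compared by percentile, that is, the share of optimal peaks with a lower signal in that replicate. The median signal of the 117 peaks was 72.5, beside 76.5 for all optimal peaks, and 10 of them (8.55%) were among the 6859 of highest signal, which make up 10% of the list. The 14 promoter peaks had a median of 104, beside 67.6 for the 14473 optimal peaks within 1 kb of any annotated start.

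Among the RNA-binding proteins, Rbfox3 carried 42 peaks in a 462 kb window. The peak at its first start, 135 bp into the transcript at chr11:118911462 in the untranslated region, had a signal of 149 in replicate 1 and 129 in replicate 2. A second promoter peak at 118907493, by the start of a noncoding transcript, was weak at 30.3 and 24.3. The strongest lay at 118508083, 403514 bp from the first start and within 1 kb of the internal start of a short coding transcript. It reached 236 in replicate 1 and 256 in replicate 2, percentiles of 97.5 and 99.6, and the peak on the other side of the same start, at 118506747, had 31.4 and 24.0. The highest Rbfox3 signals were thus found inside the gene, in both replicates, not at the first start.

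The other 38 Rbfox3 peaks ran from 13.0 to 475 in signal, with 5.79 to 246 in replicate 1 and 8.43 to 229 in replicate 2. Of them, 1 had no summit within 100 bp in the list of replicate 2. A group of 6 of these lay within 4967 bp of intron, from 118738037 to 118743004. Their signals along the gene were 297, 263, 421, 475, 129.7 and 94.0, with a range of 57.6 to 246 in replicate 1 and 38.5 to 229 in replicate 2. Of the 6, 5 held a motif, 4 on the strand of the gene and 1 opposite. At least 5 other summits within 5 kb were found for 193 of the 68590 optimal peaks (0.281%), of which these were 6 and 2 more lay at the start of Mapt. This group was picked out after its values were seen.

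Celf4 had 22 peaks in 317 kb and, although the second most of the 10 genes, none within 1 kb of its 9 starts. Its strongest peak, in an intron 199297 bp from the first start, had signals of 228 in replicate 1 and 183 in replicate 2. The nearest to the start lay 1369 bp upstream, with 102 and 74.4. Next to the start itself, 269 bp upstream, the conservative list gave a peak of signal 19.9 that the optimal list did not hold. The remaining peaks ranged from 19.8 to 370.4, and 12 of the 22 held a motif, 9 of them opposite to the gene.

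Elavl3 and Elavl4 differed in where their strongest peak lay. In Elavl4 it was the peak 57 bp before the first start, at chr4:110351966, with 151 in replicate 1 and 152 in replicate 2. Further promoter peaks lay at internal coding starts, at 110290970 with 101 and 52.9 and at 110287904 with 51.6 and 36.4, neither with a motif match, and the fourth peak had a signal of 49.0. In Elavl3 the peak 99 bp before the first start, at chr9:22052122, had only 37.7 and 33.7. Its strongest peak stood 2968 bp upstream at 22054991, with 165 and 129.7, inside an intron of the overlapping gene Gm49318. The other 5 Elavl3 peaks had signals of 24.1 to 214, and 3 of those were within 1 kb of starts of other genes, Zfp653 with Gm49318 on one side and Ccdc151 with Prkcsh on the other.

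Among the microtubule genes, Mapt and Map2 both had several summits near their first starts, with stronger signals at Mapt. The main Mapt promoter peak lay 47 bp upstream of the first start at chr11:104231343, with 175 in replicate 1 and 149 in replicate 2. It was flanked by a promoter peak at 104230643 with 59.2 and 44.5, and by another at 104232510 with 50.7 and 55.6. With 3 weaker neighbours, 6 summits fell within 7702 bp. The strongest Mapt peak lay farther in, in an intron 84523 bp from the start at 104315913, with 214 and 201. The other 10 Mapt peaks ranged from 21.9 to 235.

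Map2, in a window of 307 kb, had 7 peaks and the weakest maximum of the 10 genes. Of its peaks 3 lay 1035, 1589 and 2406 bp from the first start, and the other 4 were spread over the rest of the gene. The maximum, the last of these 3 at chr1:66177679, was 77.7 in replicate 1 and 54.9 in replicate 2. Its 1 promoter peak, at 66176308, had 17.3 and 10.5, and was beyond 1 kb of the first start but within 1 kb of others. Only 1 of the 7 peaks held a motif, at 66407774 in an exon of a noncoding transcript, with 65.0 and 43.2. The other signals, apart from these, were between 25.4 and 41.0.

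Tubb3 had 4 peaks in 50.6 kb and none within 1 kb of its starts. Its strongest, 4426 bp upstream at chr8:123406998, had 176 in replicate 1 and 157 in replicate 2, and was 109 bp from the start of Mc1r, the melanocortin receptor gene of pigment cells. A peak inside the gene at 123416153 had 102 and 108, and 1 past its end at 123422637, 890 bp from the start of Def8, had 97.6 and 108. The fourth had 33.8 and 15.7. At the Tubb3 start the conservative list held a peak of signal 22.1, 82 bp away, absent from the optimal list.

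Of the stathmin genes, Stmn1 held the strongest peak of the 10 windows and Stmn2 the fewest peaks. At Stmn1, the peak at chr4:134478211 in the downstream flank, 4368 bp past the end of the gene, had 325 in replicate 1 and 316 in replicate 2 and ranked 8 of all 68590 optimal peaks. A second downstream peak at 134480978 had 206 and 159. Both lay between Stmn1 and Paqr7, whose start was 18486 bp from the stronger summit. The only promoter peak of Stmn1, at 134467738 and 582 bp before the start, had only 16.4 and 8.41, held no motif, and was within 1 kb of the start of Gm23634 too. The other 5 signals were between 29.7 and 148. The 4 motif matches among the 8 peaks all lay on the strand opposite to the gene.

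Stmn2 had 3 peaks in 92.2 kb. The strongest, 4503 bp into the gene at chr3:8513863, had 122 in replicate 1 and 106 in replicate 2. A peak 5485 bp past the gene had 65.2 and 57.0, and the third, near the edge of the upstream flank, had 22.8 and 6.18. No peak of either thresholded list lay within 1 kb of a Stmn2 start, and the list called on both replicates together gave only 8.68 there.

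Gap43 had 6 peaks in 132 kb. Its promoter peak, at chr16:42276644, was 64007 bp into the gene beside the start of a noncoding transcript, with 247 in replicate 1 and 212 in replicate 2. Around the start of the coding transcript none was listed within 1 kb, and the nearest, 2805 bp inside, had 102 and 74.0. The other 4 had signals of 23.0 to 63.2. As in Rbfox3, the high promoter value belonged to an internal start.

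**Figure D2:**
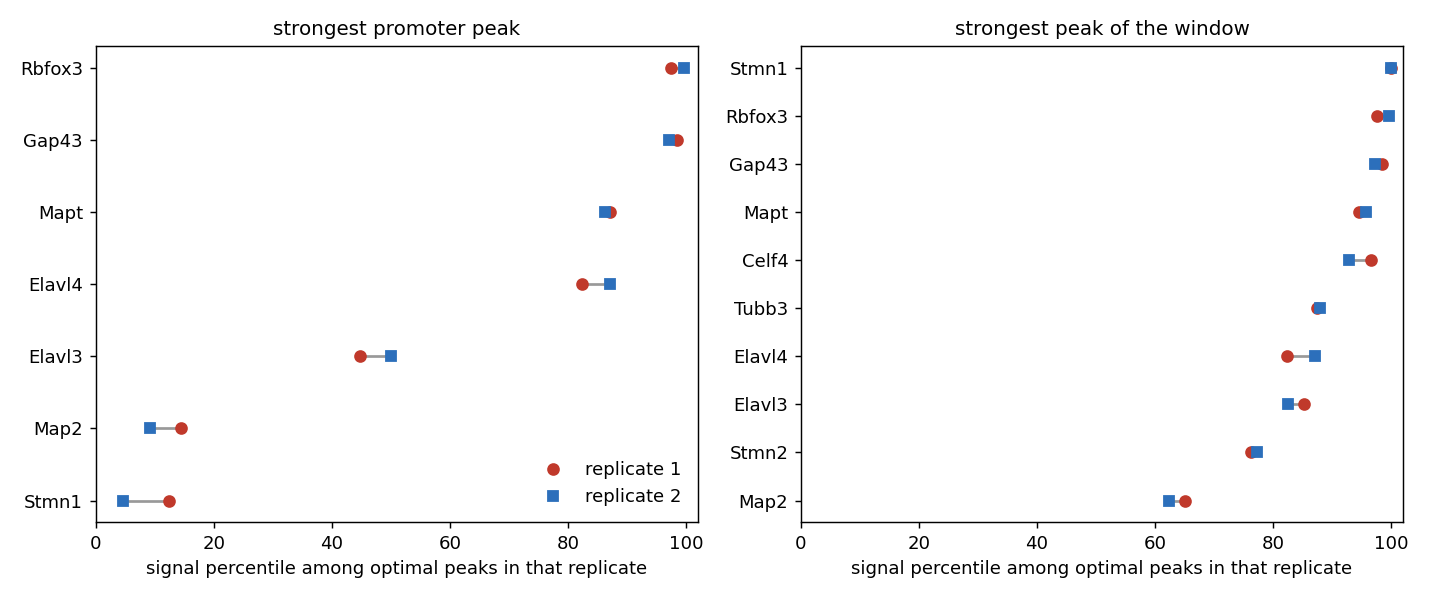
Percentile of the strongest promoter peak (left, 7 genes) and of the strongest peak in the window (right, 10 genes) in replicate 1 (circles) and replicate 2 (squares), among optimal peaks found in that replicate. Promoter peaks spread from 4.59 to 99.6. The strongest peaks of all windows lie at 62.4 or above, which is high by construction because each is a maximum.

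Ordered by the optimal signal of the strongest promoter peak, the genes ran Rbfox3 (492), Gap43 (459), Mapt (322), Elavl4 (304), Elavl3 (73.7), Map2 (29.5) and Stmn1 (26.6). Rbfox3 and Gap43 exchanged places between the replicates, and so did Mapt and Elavl4. The percentiles of Map2 (14.5 and 9.21) and Stmn1 (12.5 and 4.59) overlapped. The steps from Gap43 to Mapt, from Elavl4 to Elavl3 and from Elavl3 to Map2 were larger than the spread between the replicates. The median of the 7 was 304, beside 84.4 for the 9431 coding genes with a promoter peak. Both medians take the highest signal over any annotated start of a gene, and the values of Rbfox3 and Gap43 belonged to internal starts. Within 1 kb of the first start Rbfox3 had 277, and Gap43 and Map2 had no peak.

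For the strongest peak of the window the order was Stmn1 (638), Rbfox3 (492), Gap43 (459), Mapt (415), Celf4 (412), Tubb3 (331), Elavl4 (304), Elavl3 (294), Stmn2 (229) and Map2 (134). Of the neighbouring pairs, 3 exchanged places between the replicates, namely Rbfox3 with Gap43, Mapt with Celf4, and Elavl4 with Elavl3. The percentiles of Tubb3 (87.4 and 87.9) stood just above those of Elavl4 (82.3 and 87.1). Stmn1 was the highest and Map2 the lowest in both replicates.

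By promoter signal, the coding genes next above and next below were Xkr6 and Ccnd1 for Rbfox3, B9d1 and Stk10 for Gap43, Ubr2 and Best1 for Mapt, and Smyd3 and Fuca1 for Elavl4. They were Pmm2 and Rps9 for Elavl3, Cyp51 and Ubl7 for Map2, and Gpr83 and Ptger3 for Stmn1. Likeness here means only a neighbouring place in 1 order of 9431 genes.

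**Figure D3:**
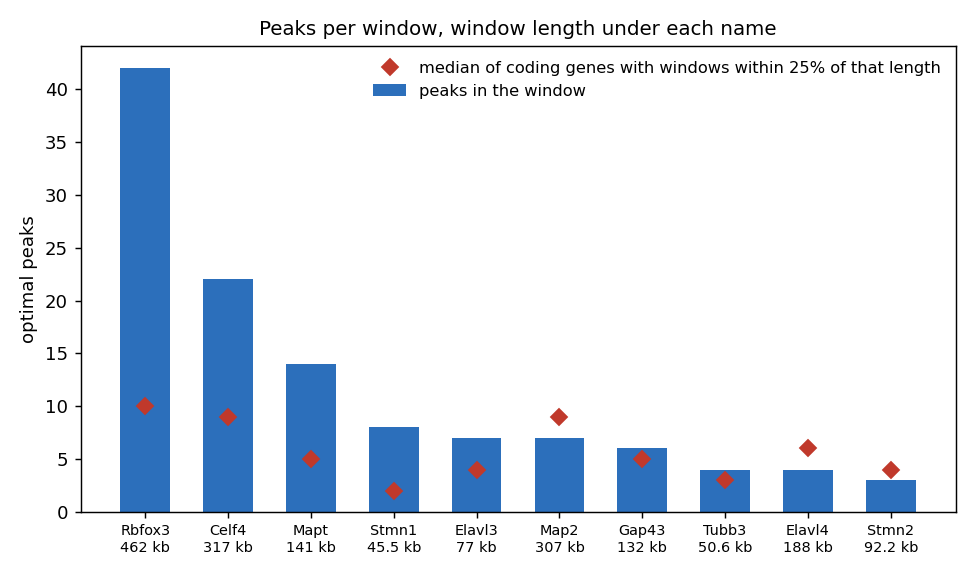
Number of optimal peaks in each gene's window (bars, axis from 0) and the median number over coding genes whose windows were within 25% of that length (diamonds), with the window length under each name. Rbfox3, with 42 peaks against a median of 10, is farthest above its diamond, and Map2, Elavl4 and Stmn2 are below theirs.

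Per 100 kb of window the members had a median of 7.43 peaks, beside 4.53 over all coding genes. The same measure was 7.70 for 24 other pan-neuronal genes. It was 5.23 for 23 genes related to the members by family or function, and 6.29 for these 47 together. The members' value thus lay between that of the related genes and that of the other pan-neuronal genes. Every member had at least 3 peaks, while 3709 of the 21755 coding genes had none. The member windows were longer, however, with a median of 136 kb beside 57.4 kb over all coding genes. Stmn1 was the densest with 17.6 per 100 kb, at percentile 98.1 of coding genes (ties shared evenly), and Elavl4 the sparsest with 2.13, at percentile 28.0. Because longer windows hold more peaks, each gene was also set beside coding genes with windows within 25% of its length, a description chosen after the counts were seen. By that count Rbfox3 stood at percentile 99.4 of 350 such genes, Mapt at 97.0, Celf4 at 96.8, Stmn1 at 95.6, Elavl3 at 85.2, Tubb3 at 67.7 and Gap43 at 61.7. Map2 stood at 37.2, Stmn2 at 35.6 and Elavl4 at 28.2.

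A motif match within 50 bp of the summit was found at 67 of the 117 peaks, or 57.3% (95% Wilson interval 48.2 to 65.9, counting error only), beside 64.9% of all optimal peaks. Of the 14 promoter peaks 7 held one, beside 44.7% of all optimal peaks within 1 kb of a start. Matched peaks in the windows had a median signal of 130.3 and unmatched ones 43.1, beside 117 and 46.1 over the whole list. The motif lay on the strand of the gene in 28 and opposite in 39. The counts were 3 and 9 in Celf4 and 0 and 4 in Stmn1, but 16 and 13 in Rbfox3 and 5 and 3 in Mapt. The same was not counted over the windows of all coding genes, so these counts show no trait of the members. Of the 67 matches 24 held at least 1 CpG (35.8%), beside 38.9% of all matches. Annotated repeats covered at least 50% of the bases around the summit in 15 of the 117 (12.8%), beside 17.1% of all optimal peaks.

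Of the 117 peaks, 115 (98.3%) had a summit within 100 bp in both replicate lists, beside 97.8% of all optimal peaks. In the conservative list 102 (87.2%) had a summit at the very same base, beside 86.9%. That list held 120 peaks in the windows. The optimal list was thresholded by reproducibility and each replicate list held 300000 peaks, so a high share in both was built in. The 2 peaks that failed this rule were a Rbfox3 intron peak at 118678650 and an Elavl3 intron peak at 22050512. They had signals of 6.89 and 21.7 in replicate 1 and no summit within 100 bp in replicate 2. When peak intervals only had to overlap by 1 bp, 116 of the 117 were found in both replicate lists. The median log2 ratio of replicate 1 to replicate 2 was 0.36, beside 0.30 over all peaks, and ratios were read relative to the latter.

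**Figure D4:**
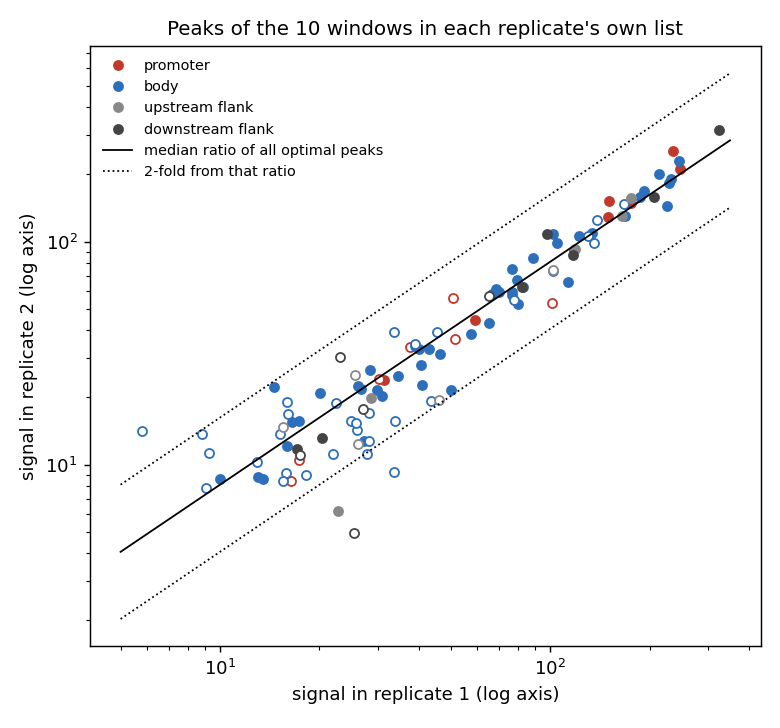
Signal in replicate 2 against replicate 1 for the 115 window peaks found in both lists (both axes logarithmic, deposited signal value), filled where a motif match was found. The solid line is the median ratio of all optimal peaks and the dotted lines mark 2-fold from it, with 5 peaks outside.

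Relative to that median, 110 peaks were within 2-fold and 5 were not. Of these, 4 were higher in replicate 1: the Elavl3 flank peak at 22002411 near the Ccdc151 start by 2.06 on the log2 scale, the Stmn2 flank peak at 8489424 by 1.58, the Rbfox3 intron peak at 118544720 by 1.55 and the Map2 intron peak at 66359954 by 1.03. The Rbfox3 intron peak at 118871884 was lower in replicate 1, at -1.60. All 5 were weak, with optimal signals of at most 43.8, and only the Stmn2 peak held a motif.

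Comparison genes were counted in the same way from a list of 23 genes related to the members and 24 further pan-neuronal genes. The related genes are not all paralogs of a member. They include widely expressed genes such as Tubb5, so the 47 together are not a purely neuronal set. A promoter peak was found at 34 of the 47 (72.3%), namely 17 of 23 related genes and 17 of 24 others, beside 43.4% of coding genes. Their median promoter signal was 64.0, beside 84.4 for all coding genes with a promoter peak. The highest were Dpysl3 with 467, a collapsin response mediator of growth cones, Tubb5 with 415, a widely expressed beta-tubulin, and Nsg2 with 397, a neuronal vesicle protein. None was listed at the promoters of Map1b, Dcx or Nsg1, and for the microtubule-binding doublecortin gene Dcx and for Nsg1 the whole window held none. The pan-neuronal genes Dpysl2, Eno2, Uchl1, Syp and Snap25 had no promoter peak either, but their windows held 11, 5, 10, 2 and 3 peaks. The 6 related genes without a promoter peak were Map1b, Tubb4a, Tubb6, Stmn3, Stmn4 and Elavl1.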

How the data were processed

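CTCF ChIP-seq was measured in midbrain of B6NCrl mice at postnatal day 0, 1 group of 2 replicates. The authors deposited 5 peak lists on mm10, per the deposited text notes: 1 per replicate, 1 called on both together (300000 peaks each) and the 2 lists, optimal (68603) and conservative (65493), thresholded by the irreproducible discovery rate. Each gives a signal value per peak, made by the authors on a scale that is not stated. The sources used here name no aligner, caller, threshold or depth, nor the sets compared for each thresholded list.

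Summits were assigned to GENCODE vM21 genes with Python 3.11.15, numpy 2.4.6, pandas 2.3.3 and pysam 0.24.0. Each optimal peak was matched to the nearest summit within 100 bp in each replicate list. A 20 bp matrix was learned from the 2000 strongest peaks on odd-numbered chromosomes with X, and applied to the even-numbered, and the reverse. A match needed p of 1e-05 within 50 bp, against genome base frequencies. Motif search and counting were tested on simulated data. No test between groups was possible, so members are described beside all coding genes or all peaks, with no p-value. Peaks of 1 window are not replicates.

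All 10 members were named. In each window the strongest and all promoter peaks are given, others by range and count. Comparison genes (the related genes and further pan-neuronal genes) are named by the 3 highest promoter signals and up to 3 without a promoter peak. Genes most like a member are named by the nearest promoter signals. No rule fixed which 3 without a promoter peak came first, and the others without one were chosen after their values were seen. So were the 5 peaks unequal between replicates and the 2 without a summit within 100 bp in replicate 2. Members and lists were chosen with earlier results of these data known. Alternatives changed the promoter width, flank, list, motif threshold and matching rule.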

Additional observations from a re-analysis of the deposited data

How the results depend on the processing

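The number of members with a promoter peak was 7, beside 43.4% of coding genes. It was 4 with a promoter of 500 bp (Rbfox3, Mapt, Elavl3 and Elavl4), beside 35.8%, 8 with 2 kb, beside 50.4%, and 10 with 5 kb, beside 61.3%. It was 4 with the stronger 50% of the list (Rbfox3, Gap43, Mapt and Elavl4), beside 23.1%, and 9 with the conservative list, where Celf4 and Tubb3 gained a weak peak, beside 41.8%. Restricting to the stronger 50% also gave 16 of the 47 comparison genes with a promoter peak, beside the same 23.1% of coding genes. It left 52 peaks in the windows, with 3.03 per 100 kb, by construction fewer. The median per 100 kb was 6.17 with a 10 kb flank, 6.91 with 50 kb and 6.33 with none. The share of peaks with a motif was 80.3% at 1e-04 and 36.8% at 1e-06, beside 83.5% and 38.8% of all peaks. Leaving out 1 replicate replaced the optimal list by the 68590 peaks of highest signal in the other replicate's own list, with no reproducibility threshold. This gave 6 to 7 members (Map2 lost its promoter peak without replicate 1) and 32 to 34 comparison genes, beside 44.0% to 44.1% of coding genes. The windows then held 124 to 126 peaks, with 7.84 to 8.38 per 100 kb. The optimal peaks of the windows, ranked by their signal in 1 replicate alone, had a median percentile of 47.3 to 49.4. Of 39 alternatives, 27 left the value within 1.5 times for a count, or within the interval or the spread between replicates for others. These limits were wide for counts, as 5 members (outermost start only) and 10 both passed as unchanged from 7. The spread for the percentile came from the same 2 replicate values that it judged. The median per 100 kb stayed within its spread (0.376) only with the conservative list (7.20). No paired analysis was possible because there was only 1 group. The unknown depth limits what a missing peak shows, and 2 replicates with the same biosample record limit the error estimates.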
